A study of Mus musculus with 35 samples.

Results

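Glutamine and amino acid handling was followed through 9 genes chosen by name, Glul, Glud1, Slc1a5, Slc7a5, Slc3a2, Slc38a2, Asns, Got1 and Got2. Each symbol was matched to 1 Ensembl row out of 47069 gene identifiers in the expression files, and all 9 were among the 11354 genes with a mean of at least 1 FPKM (sequenced fragments scaled to transcript length and library depth) that were tested. The rule that chose them used names alone, but it was set with earlier results of these data known. The material was bone marrow-derived macrophages (BMDMs) grown from C57BL/6 mice in L929-conditioned medium, WT or labelled AMPKa1-/-, and exposed for 24 h to vehicle (DMSO), dexamethasone (Dex, 100 nM, a synthetic glucocorticoid), lipopolysaccharide (LPS, 100 ng/ml, a bacterial cell wall component that triggers inflammatory activation), LPS + Dex, DAMPs (1 µg/ml, damage-associated molecular patterns whose composition the labels do not give) or DAMPs + Dex. This gave 35 RNA-seq libraries in 12 groups, with 3 libraries per group and 2 in WT LPS, each from a separate culture. Replicate numbers run across the treatments of each genotype, and the labels do not say whether they mark the same mouse, litter or day.

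Glutamine enters macrophages through membrane carriers, and glutamine synthetase (Glul) makes it inside the cell by fixing ammonia onto glutamate. Glutamate dehydrogenase (Glud1) and the aspartate aminotransferases (Got1 in the cytosol, Got2 in mitochondria) connect glutamate with the tricarboxylic acid cycle and with aspartate, and asparagine synthetase (Asns) spends glutamine and aspartate to make asparagine. Slc1a5 carries glutamine and other small neutral amino acids, Slc38a2 is a sodium-coupled carrier of the same kind, and Slc7a5 pairs with the heavy chain encoded by Slc3a2 to exchange large neutral amino acids such as leucine for intracellular glutamine. In macrophages these steps are known to shift with inflammatory activation, and glutamine synthetase is a long-known glucocorticoid-induced enzyme in several tissues.

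The labels were checked against the treatments and the genotype first. Il1b, an inflammatory cytokine, averaged 15292.5 FPKM in WT LPS and 4.96 ± 1.04 (SD, n = 3) in WT vehicle. Tsc22d3, a glucocorticoid-induced gene, averaged 709 ± 36.9 FPKM (SD, n = 3) in WT Dex against 53.5 ± 1.60 in WT vehicle. Prkaa1, which encodes AMPKα1, was not lower in the libraries labelled AMPKa1-/-. It read 14.8, 16.5 and 15.4 FPKM there with vehicle against 15.9, 11.8 and 15.3 FPKM in WT, a log2 difference of 0.12 with a 95% interval of -0.36 to 0.60. The gene-level FPKM therefore did not separate the genotypes, and each genotype difference below is between libraries as labelled.

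All 8 macrophage markers listed were detected in every library, and Lyz2 was the most abundant (a mean of 24097 FPKM over all libraries). Several of them moved with treatment. Fcgr1, an Fc receptor, ranged from 4.39 to 347 FPKM over the 35 libraries, and Itgam, an integrin chain, from 9.12 to 102 FPKM. Dex lowered them in WT by 3.17 and by 2.38 on the log2 scale. It also lowered Cd68, a lysosomal protein, by 0.70 there and raised Mertk by 2.40. LPS in WT lowered Cd68 by 3.02, Csf1r by 1.34, Lyz2 by 0.61 and Mertk by 0.56. It raised Cd14, Fcgr1 and Adgre1 by 2.91, 2.01 and 0.92. Of the other cell types, the neutrophil list summed to between 95.7 and 132.9 FPKM in the 5 LPS libraries and to at most 15.5 FPKM in the groups without LPS, with 25.1 to 52.2 FPKM under LPS + Dex. Nearly all of that sum was Camp, while the neutrophil-defining Ly6g was at 0 in 31 of 35 libraries. Cd4 carried the T cell list (a mean of 28.9 FPKM in WT DAMPs and 0.959 FPKM in WT LPS), with Cd3e at 0 in 26 libraries. The fibroblast list reached at most 24.7 FPKM, in WT Dex. The part of other cells in the results was not tested, and in bulk RNA fewer cells of a type and less RNA per cell cannot be told apart.

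Some libraries stood apart. The 3 WT Dex libraries had the lowest summed FPKM (647329 to 689281) and a gradient with transcript length. Against WT vehicle the median log2 change was -0.15 over 1270 genes of up to 1.5 kb and 0.31 over 1882 genes longer than 8 kb, whereas in AMPKa1-/- the same medians were 0.10 and -0.17. In the LPS + Dex libraries 1 gene, Saa3, took 16.0 to 24.0% of all FPKM. LPS also moved the median of all genes, by -0.19 in WT and -0.30 in AMPKa1-/- on the log2 scale, so a change of that size under LPS is no larger than that of the median gene.

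The 9 genes spanned a wide range of expression. Glul was the most abundant, with a mean of 1310 FPKM over the 35 libraries, followed by Slc3a2 (327 FPKM), Glud1 (255 FPKM), Got2 (86.4 FPKM), Got1 (57.6 FPKM), Slc1a5 (23.4 FPKM), Slc38a2 (18.0 FPKM), Asns (10.9 FPKM) and Slc7a5 (1.497 FPKM). Slc7a5 was thus the least abundant by far while its partner Slc3a2 was among the most abundant, and by the annotated exon length the level of Slc7a5 rested on about 28 to 356 fragments per library against 3121 to 259112 for Glul. These counts are rough. They were whole within 0.05 fragments in 3 of 35 libraries for Slc7a5 and 4 for Glul, against 35 for Prkaa1. The plot of levels by library shows all 35 values of each gene.

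**Figure D1:**
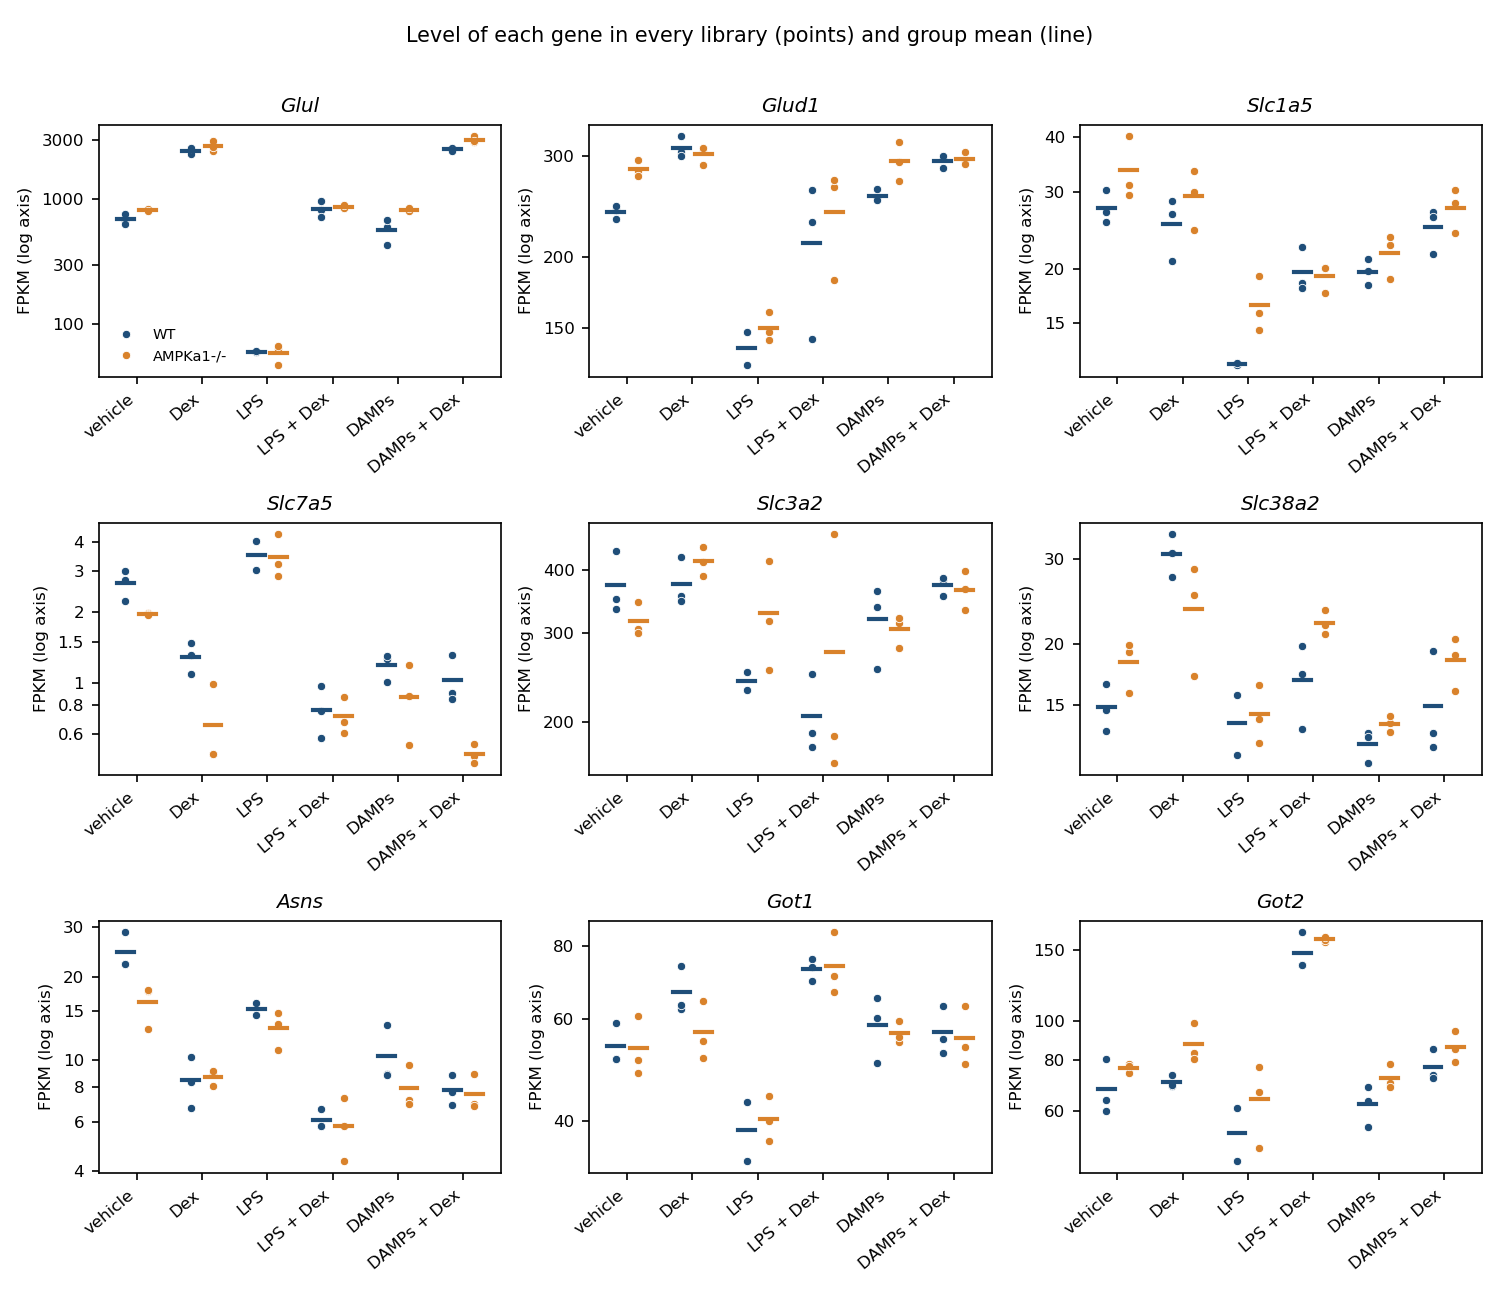
Level of each of the 9 genes (FPKM, log axis) by treatment in WT (blue) and AMPKa1-/- (orange); points are single libraries and lines are group means. Glul ranged from 47.2 FPKM in an LPS library to 3195 FPKM in a DAMPs + Dex library, and Got2 was highest in the 6 LPS + Dex libraries.

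The enzyme that makes glutamine showed the largest swings. In WT, Glul (ENSMUSG00000026473, GRCm38 chr1:153899944-153909723, plus strand) read 673, 763 and 632 FPKM with vehicle, 2384, 2298 and 2578 FPKM with Dex, and 60.2 and 60.8 FPKM with LPS. Adding Dex to LPS gave 820, 968 and 724 FPKM. The 3 Dex libraries lay above all vehicle libraries, the LPS libraries far below them, and the LPS + Dex libraries overlapped with vehicle. Mean FPKM was thus 3.51-fold higher with Dex than with vehicle, 11.4-fold lower with LPS than with vehicle, and 13.8-fold higher with LPS + Dex than with LPS.

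On the log2(FPKM + 1) scale used for all tests (limma, Benjamini-Hochberg adjusted over 11354 genes, which understates changes of weakly expressed genes), the WT changes in Glul were 1.81 (SE 0.13, adjusted p = 2.45e-11) for Dex against vehicle, -3.48 (SE 0.15, adjusted p = 3.03e-17) for LPS against vehicle and 3.76 (SE 0.15, adjusted p = 1.86e-17) for LPS + Dex against LPS. Levels in LPS + Dex and in vehicle differed by 0.27, which did not pass the test (adjusted p = 0.0807), although it did when libraries were centred on a common median (0.49, adjusted p = 0.00488) and under quantile normalization (0.46, adjusted p = 0.0235). The Dex effect was larger with LPS than without it, by 1.95 on the log2 scale (SE 0.20, adjusted p = 1.95e-08).

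Libraries labelled AMPKa1-/- changed in the same directions with Dex and with LPS. Their Glul levels read 825, 832 and 800 FPKM with vehicle, 2437, 2615 and 2911 FPKM with Dex, 63.5, 66.8 and 47.2 FPKM with LPS, and 845, 856 and 906 FPKM with LPS + Dex. Unlike in WT, every LPS + Dex library lay above every vehicle library, although the log2 difference of 0.09 did not pass (adjusted p = 0.595). With the length gradient removed, Glul passed as higher in LPS + Dex than in vehicle in both genotypes. The log2 changes were 1.69 for Dex, -3.78 for LPS and 3.87 for LPS + Dex against LPS (adjusted p = 1.07e-10, 2.50e-19 and 4.71e-19). The Dex effect was again larger with LPS, by 2.18 (adjusted p = 6.85e-10). DAMPs + Dex also raised Glul over DAMPs, by 2.16 in WT (2536, 2546 and 2440 against 599, 680 and 434 FPKM) and by 1.86 in AMPKa1-/- (3195, 2845 and 2940 against 815, 802 and 852 FPKM), with no overlap between the groups in either genotype. It was the only 1 of the 9 genes to pass the test for DAMPs + Dex against DAMPs, where 24.3% of all genes tested passed in WT and 25.3% in AMPKa1-/-.

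A gene of the opposite strand, Teddm2, overlaps the first bases of Glul, and whether reads were assigned by strand is not given in the sources used here. Teddm2 averaged 0.301 FPKM, against 1310 FPKM for Glul. Across the 12 group means, the 3 genes whose pattern was most like that of Glul were Slc43a2, a carrier of large neutral amino acids (Pearson r = 0.991), Serinc5 (r = 0.989) and Cnnm2 (r = 0.988), among 3872 genes that varied by an SD of at least 0.5. These correlations are descriptions over 12 points that share their treatments and genotypes. In WT the log2 changes of Slc43a2 were 1.53 with Dex, -2.35 with LPS and 2.33 for LPS + Dex against LPS, all past the test.

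Got2 and Got1, the aminotransferases that exchange glutamate and aspartate, had their highest group means when LPS and Dex were combined, with a clear separation from the other treatments for Got2 in both genotypes but not for Got1 in WT. In WT, Got2 (ENSMUSG00000031672, chr8:95864134-95888547, minus strand) read 59.9, 80.5 and 63.9 FPKM with vehicle, 69.2, 69.4 and 73.7 FPKM with Dex, 45.1 and 60.9 FPKM with LPS, and 138, 166 and 138 FPKM with LPS + Dex. Its AMPKa1-/- values were 78.3, 74.6 and 77.3 FPKM with vehicle, 83.4, 99.2 and 80.5 FPKM with Dex, 77.0, 66.8 and 48.6 FPKM with LPS, and 157, 159 and 162 FPKM with LPS + Dex. In both genotypes every LPS + Dex library exceeded every library of the other 5 treatments, while Dex alone overlapped with vehicle in WT and lay above it in AMPKa1-/-.

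Dex alone gave log2 changes in Got2 of 0.07 (95% interval -0.21 to 0.35) in WT and 0.18 (-0.10 to 0.47) in AMPKa1-/-, neither past the test. With LPS present, Dex raised it by 1.47 (SE 0.15) and 1.32 (SE 0.14), and the Dex effects with and without LPS differed by 1.40 (adjusted p = 6.54e-06) and 1.14 (adjusted p = 4.49e-05). Compared with vehicle, LPS + Dex raised Got2 by 1.11 in WT and by 1.04 in AMPKa1-/-. The genes most like Got2 across the group means were Chchd10, which encodes a mitochondrial protein (r = 0.964), Hopx (r = 0.954) and Wipi1 (r = 0.948).

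Got1 (ENSMUSG00000025190, chr19:43499752-43524605, minus strand) read 51.2, 59.1 and 51.2 FPKM with vehicle, 34.1 and 43.2 FPKM with LPS and 76.1, 73.7 and 69.7 FPKM with LPS + Dex in WT. In AMPKa1-/- it read 51.0, 48.4 and 60.8 FPKM, 44.2, 40.03 and 37.0 FPKM, and 71.0, 66.8 and 84.5 FPKM in the same order. These 3 treatments did not overlap in either genotype. With Dex alone Got1 read 74.1, 62.5 and 63.5 FPKM in WT, above every vehicle library and overlapping with LPS + Dex, a change of 0.30 that did not pass (adjusted p = 0.0590). The AMPKa1-/- values with Dex were 55.0, 51.5 and 64.3 FPKM, which overlapped with vehicle and lay below LPS + Dex. LPS + Dex raised Got1 over LPS by 0.91 (SE 0.14) and 0.86 (SE 0.12) and over vehicle by 0.44 and 0.46, all past the test, and the Dex effect was larger with LPS by 0.61 (adjusted p = 0.0119) and 0.77 (adjusted p = 0.00111). The fall with LPS, by 0.47 in WT and by 0.39 in AMPKa1-/-, was lost when libraries were centred on a common median (-0.29 and -0.10).

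Glutamate dehydrogenase fell with LPS and was higher in LPS + Dex than in LPS. Glud1 (ENSMUSG00000021794, chr14:34310727-34345265, plus strand) read 233, 241 and 245 FPKM with vehicle, 148 and 129 FPKM with LPS and 230, 261 and 144 FPKM with LPS + Dex in WT. In AMPKa1-/- it read 295, 283 and 277 FPKM, 160, 148 and 143 FPKM, and 265, 272 and 182 FPKM. The LPS + Dex library numbered 3 was the low one in both genotypes, and in WT it lay within the LPS range. LPS lowered Glud1 by 0.79 (adjusted p = 0.000106) and by 0.92 (adjusted p = 2.21e-06), and LPS + Dex raised it over LPS by 0.57 (adjusted p = 0.00564) and 0.65 (adjusted p = 0.000496). Without both LPS + Dex libraries numbered 3, a choice made after seeing the data, the rise was 0.82 and 0.84. The WT rise was 0.40 to 0.47 and did not pass without WT LPS + Dex replicate 2 or WT LPS replicate 3. With Dex alone, WT libraries read 305, 325 and 300 FPKM, a rise of 0.37 (adjusted p = 0.0475) that did not pass when any of the 6 libraries compared was left out.

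**Figure D2:**
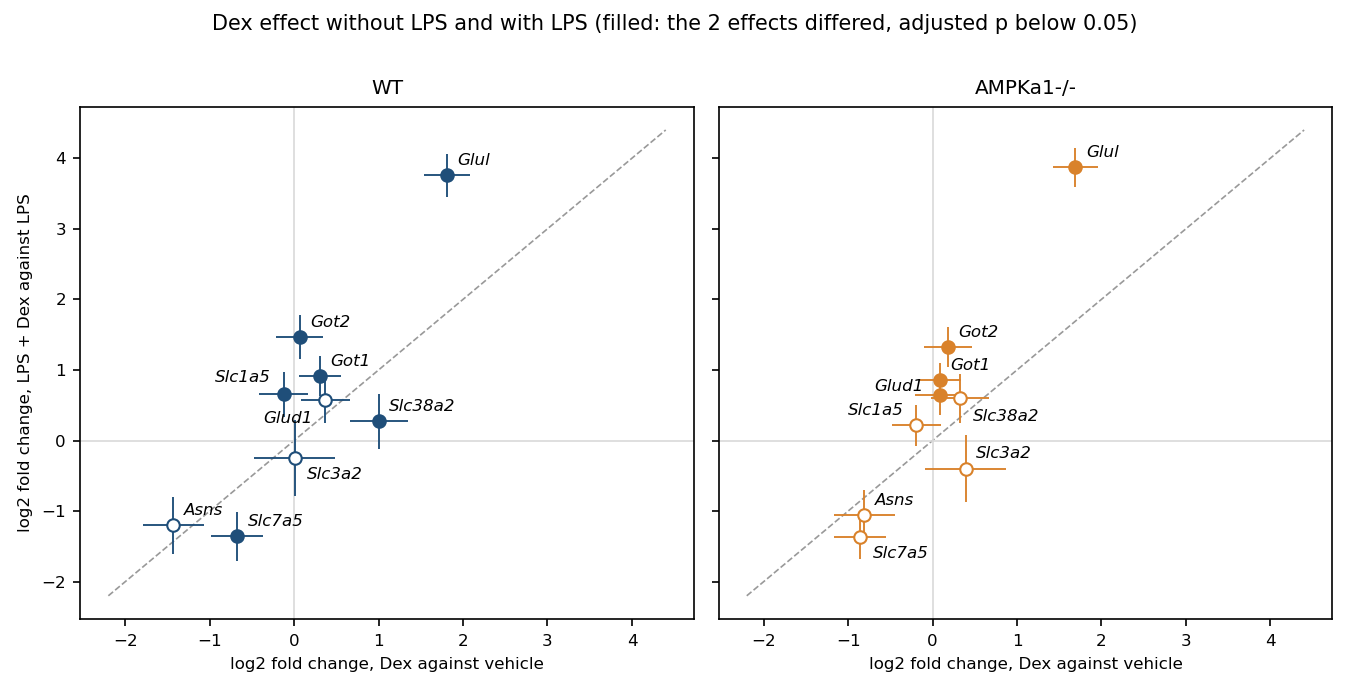
Log2 fold change on the log2(FPKM + 1) scale for Dex against vehicle (horizontal) and for LPS + Dex against LPS (vertical) in WT and AMPKa1-/-, with 95% intervals; on the dashed line both effects are equal, and filled points passed the test of their difference. Glul, Got1 and Got2 lay above the line and passed in both genotypes, and Glul was farthest from it (1.95 in WT and 2.18 in AMPKa1-/-).

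Of the 9 genes, 6 passed the test of a Dex effect that differed with and without LPS in WT (4 higher and 2 lower, with 32.0% of all genes tested passing, 14.9% higher and 17.1% lower) and 4, all higher, in AMPKa1-/- (28.4%, with 15.5% higher and 12.8% lower). With DAMPs in place of LPS no gene of the 9 passed in either genotype, but only 0.00881% of all genes passed in WT and 0.308% in AMPKa1-/-, while 1124 and 1167 of the 11354 genes had an unadjusted p below 0.05. Asns came nearest among the 9, where the Dex effect was less negative with DAMPs than without by 1.08 in WT (adjusted p = 0.257) and 0.76 in AMPKa1-/- (adjusted p = 0.238). Without WT DAMPs replicate 2 the WT difference was 1.26 and passed (adjusted p = 0.0234). In a fit with libraries of the same replicate number as a block, the difference passed for Asns in both genotypes. Libraries of the same number did not deviate alike from their group means in the DAMPs comparisons, however. For DAMPs + Dex against DAMPs the lowest correlation of these deviations was -0.31 in WT and -0.49 in AMPKa1-/-, so the block has no basis there.

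Asparagine synthetase moved in the opposite direction to Glul under Dex. In WT, Asns (ENSMUSG00000029752, chr6:7675169-7693254, minus strand) read 22.2, 28.8 and 22.3 FPKM with vehicle, 6.75, 10.3 and 8.38 FPKM with Dex, 14.6 and 16.1 FPKM with LPS, 5.84, 6.67 and 5.80 FPKM with LPS + Dex, 8.96, 13.4 and 8.85 FPKM with DAMPs and 7.69, 6.91 and 8.86 FPKM with DAMPs + Dex. Vehicle libraries were above all others, LPS libraries came next, and the other 4 treatments were lower still, with DAMPs overlapping with Dex and with DAMPs + Dex. In AMPKa1-/- the vehicle libraries (17.8, 17.9 and 13.0 FPKM) overlapped with LPS (13.5, 14.8 and 10.9 FPKM), and the other 4 treatments lay between 4.34 and 9.60 FPKM.

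Dex lowered Asns by 1.43 in WT (SE 0.18, adjusted p = 4.43e-07) and by 0.81 in AMPKa1-/- (SE 0.18, adjusted p = 0.000883). LPS + Dex lowered it relative to LPS by 1.20 and by 1.06 (adjusted p = 1.86e-05 and 1.90e-05), and the Dex effects with and without LPS did not differ past the test in either genotype (intervals of the difference -0.31 to 0.77 and -0.76 to 0.27). DAMPs alone lowered Asns by 1.17 (adjusted p = 0.000641) and by 0.95 (adjusted p = 0.00141). The smaller Dex effect in AMPKa1-/- differed from that in WT by 0.62 with an adjusted p of 0.20, and vehicle levels were lower in AMPKa1-/- by 0.57 without passing the test (adjusted p = 0.238).

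Of 7 genes searched, Asns and Got1 had a match to an amino acid response element, the binding sequence of the stress factor ATF4 with a C/EBP partner, in their promoters. Promoters of 300 bases (250 before and 50 after each annotated start, RefSeq, GRCm38.p6) were listed for 7 of the 9 genes and were searched on both strands for TGATGNAA, or TTNCATCA on the other strand, which 3.97% of 32851 promoters held. The matches are given in capitals within 30 bases, read along the strand of the gene, because both genes moved under several treatments and in opposite directions with LPS + Dex. The first spans positions -23 to -16 and the second -102 to -95 relative to the annotated start.
Asns, chr6:7693214-7693243, minus strand: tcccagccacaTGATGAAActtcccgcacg
Got1, chr19:43524689-43524718, minus strand: cattgcattggTTGCATCAtacaagcctcc
The same promoters were searched for the full glucocorticoid response element, in which AGAACA is followed after 3 bases by TGTTCT, held by 0.00913% of promoters, and for a single arm, AGAACA or TGTTCT, held by 19.0%. None of the 7 held the full element, and the arm was found only in Asns, at -141 to -136. It is shown because Asns fell with Dex, but the arm is common, at 19.0% of all promoters, and a part in that fall was not tested.
Asns, chr6:7693333-7693362, minus strand: aggaacagaagcAGAACAcctcctggctct
Glul, Glud1, Slc3a2, Slc38a2 and Got2 held none of these letters in the window, which leaves distant elements unexamined. The starts listed for Asns, Got2, Slc38a2 and Slc3a2 lie inside the GENCODE span of the gene. In Asns the amino acid response element is therefore within that span, while the AGAACA arm lies outside it. For Slc3a2 the whole window lies inside the span of that gene, and the 5′ end of the gene was not searched. No binding was measured here.

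The amino acid carriers did not move as a group. Slc7a5 (ENSMUSG00000040010, chr8:121881150-121907694, minus strand), the leucine and glutamine exchanger, read 2.76, 2.24 and 2.998 FPKM with vehicle, 1.31, 1.09 and 1.47 FPKM with Dex, 3.05 and 4.03 FPKM with LPS and 0.964, 0.757 and 0.577 FPKM with LPS + Dex in WT. In AMPKa1-/- it read 1.99, 1.98 and 1.95 FPKM, 0.492, 0.493 and 0.983 FPKM, 2.85, 4.33 and 3.22 FPKM, and 0.870, 0.606 and 0.679 FPKM. Dex libraries lay below vehicle and LPS + Dex libraries below LPS, with no overlap in either genotype. Mean FPKM was 4.62-fold and 4.82-fold lower in LPS + Dex than in LPS, which the log2(FPKM + 1) scale shrank to a fall by 1.36 (adjusted p = 1.91e-07) and by 1.37 (adjusted p = 1.81e-08).

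Dex alone lowered Slc7a5 by 0.68 and by 0.86 (adjusted p = 0.000998 and 6.73e-05). LPS raised it by 0.57 in AMPKa1-/- (adjusted p = 0.00149), and in WT the change of 0.31 did not pass as measured but did after centring (0.49), quantile normalization (0.58) or removal of the length gradient (0.51). DAMPs lowered it by 0.74 in WT (adjusted p = 0.00754) and by 0.69 in AMPKa1-/- (adjusted p = 0.00538). Its closest pattern among 3872 genes was Psat1, which encodes the aminotransferase of serine synthesis (r = 0.937 over 12 group means), followed by Nek6 (r = 0.921) and Rbpj (r = 0.911). Among the 9 genes themselves, group means of Slc7a5 and Asns correlated at r = 0.825, Glul and Glud1 at r = 0.929, and Glul and Slc7a5 at r = -0.816.

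The partner chain behaved differently. Slc3a2 (ENSMUSG00000010095, chr19:8706882-8723369, minus strand) read 351, 436 and 335 FPKM with vehicle, 355, 347 and 424 FPKM with Dex, 232 and 252 FPKM with LPS and 190, 179 and 249 FPKM with LPS + Dex in WT. In WT, Dex alone left it within the vehicle range (log2 change 0.01, interval -0.47 to 0.49), LPS lowered it by 0.62 (adjusted p = 0.0465), and LPS + Dex was lower than vehicle by 0.86 (adjusted p = 0.00281). The AMPKa1-/- libraries read 306, 301 and 346 FPKM with vehicle, 390, 444 and 415 FPKM with Dex and 318, 254 and 417 FPKM with LPS. The 3 Dex libraries lay above all vehicle libraries there, with a mean 1.31-fold higher, but the log2 change of 0.39 did not pass (adjusted p = 0.228) except in a fit on these groups alone (adjusted p = 0.0224), and LPS overlapped with vehicle (0.03). The AMPKa1-/- LPS + Dex libraries read 188, 166 and 471 FPKM, so that the library numbered 3 was the highest of all 35. With it the change against LPS was -0.40 (adjusted p = 0.196). Without both LPS + Dex libraries numbered 3 the change was -0.87, but that choice was made after seeing these values and is given as a description only.

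Slc1a5 (ENSMUSG00000001918, chr7:16781340-16798274, plus strand), the small neutral amino acid carrier, read 26.9, 25.5 and 30.3 FPKM with vehicle, 12.004 and 12.2 FPKM with LPS and 22.5, 18.5 and 18.0 FPKM with LPS + Dex in WT. The 3 treatments did not overlap. LPS lowered it by 1.12 in WT (adjusted p = 6.62e-07) and by 0.98 in AMPKa1-/- (29.5, 31.1 and 40.3 FPKM with vehicle, 15.8, 19.2 and 14.4 FPKM with LPS, adjusted p = 7.21e-07). Dex raised it over LPS by 0.65 in WT (adjusted p = 0.00161), while the AMPKa1-/- change of 0.21 (20.0, 20.0 and 17.5 FPKM, adjusted p = 0.250) did not pass. The difference between the genotypes in this response, -0.44, had an interval of -0.87 to -0.01 and did not pass after adjustment.

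Slc38a2 (ENSMUSG00000022462, chr15:96687392-96699730, minus strand) was highest in WT Dex, at 27.5, 33.7 and 30.8 FPKM against 13.2, 14.6 and 16.6 FPKM with vehicle, a rise of 1.00 (SE 0.17, adjusted p = 4.34e-05). Its exons total 8838 bases, which places it among the long genes that read higher in the WT Dex libraries, and with the length gradient removed the rise was 0.75. In AMPKa1-/- the Dex libraries read 25.2, 17.2 and 28.6 FPKM and vehicle 19.2, 15.9 and 19.9 FPKM, a change of 0.33 that did not pass as measured but did after centring (0.39), quantile normalization (0.39) or removal of the gradient (0.48, adjusted p = 0.00541). The genotypes differed in this response by -0.68 as measured (adjusted p = 0.19) and by -0.27 with the gradient removed. With LPS it read 15.7 and 11.8 FPKM in WT and 12.5, 14.0 and 16.5 FPKM in AMPKa1-/-, and with LPS + Dex 19.8, 17.4 and 13.3 FPKM and 23.6, 21.0 and 21.9 FPKM. The LPS + Dex libraries overlapped with LPS in WT (a change of 0.27, adjusted p = 0.295) and lay above it in AMPKa1-/- (0.60, adjusted p = 0.00547). Among 3873 genes that varied by an SD of at least 0.5, the closest pattern to that of Slc38a2 was Atp8b4 (r = 0.746 over 12 group means).

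**Figure D3:**
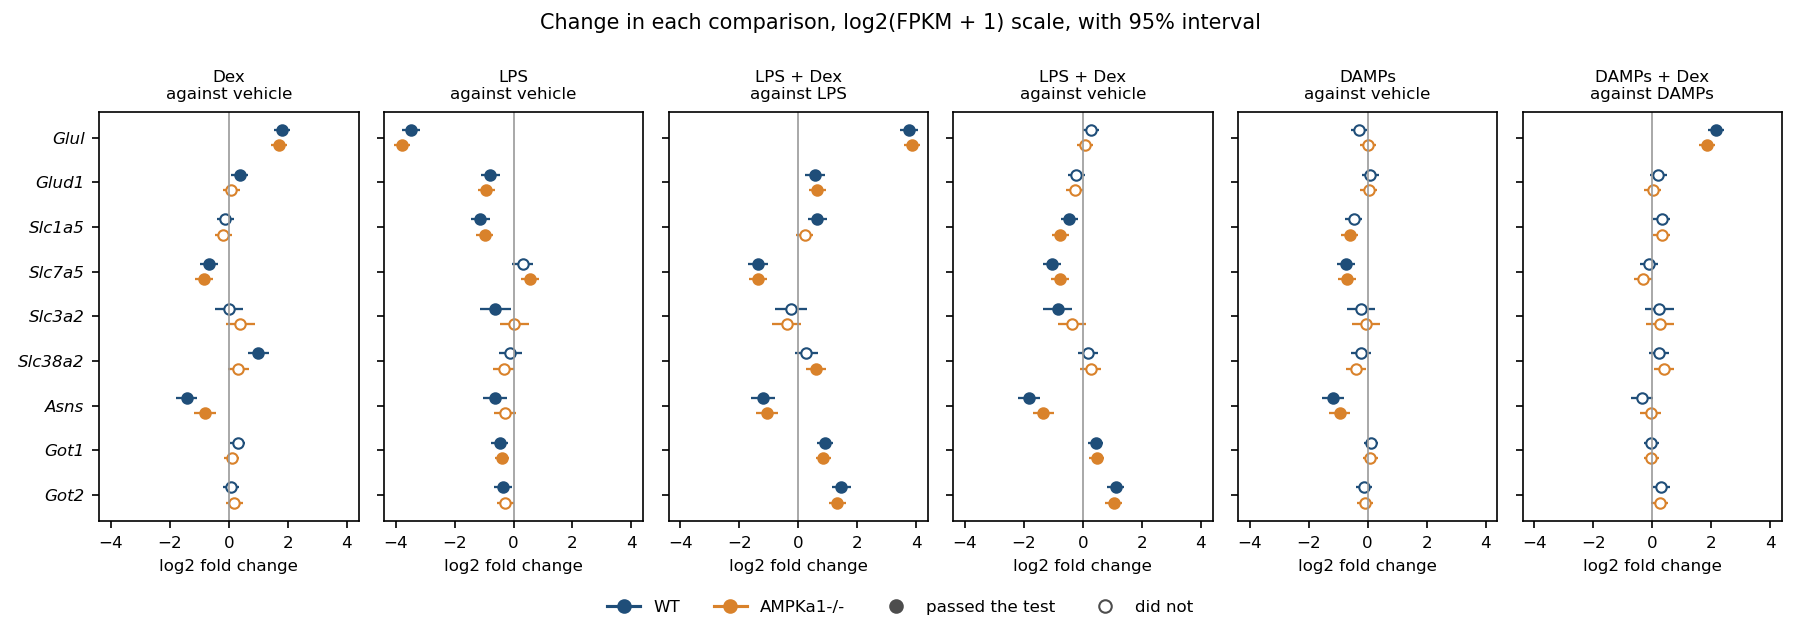
Log2 fold change of each gene with its 95% interval on the log2(FPKM + 1) scale in 6 comparisons, WT in blue and AMPKa1-/- in orange, filled where the test was passed (adjusted p below 0.05). Glul passed in both genotypes in every comparison shown except LPS + Dex against vehicle and DAMPs against vehicle, and Asns and Slc7a5 were lower in both genotypes with Dex, with LPS + Dex against LPS and with DAMPs.

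Counted over the 9 genes, Dex alone moved 5 in WT (Glul, Glud1 and Slc38a2 higher, Slc7a5 and Asns lower) where 30.9% of all genes passed, and 3 in AMPKa1-/- (Glul higher, Slc7a5 and Asns lower) where 27.9% passed. The median log2 change of the 9 was 0.07 and 0.09, beside 0.05 and -0.05 over all genes. LPS + Dex against LPS moved 7 of 9 in each genotype, 5 higher and 2 lower. Glul, Glud1, Got1 and Got2 were higher and Slc7a5 and Asns lower in both, with Slc1a5 as the fifth higher gene in WT and Slc38a2 in AMPKa1-/-. Of all genes, 34.1% passed in WT (16.6% higher, 17.5% lower) and 37.7% in AMPKa1-/- (19.3% higher, 18.4% lower). The medians were 0.57 and 0.60, beside -0.03 and 0.01 over all genes.

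LPS against vehicle lowered 7 of 9 in WT and raised none, where 35.8% of all genes passed as lower and 55.7% in either direction. In AMPKa1-/- it lowered 4 and raised 1, where 44.1% of all genes passed as lower and 20.2% as higher, 64.3% together. With libraries centred on a common median, the WT count became 3 lower (Glul, Glud1 and Slc1a5) and 1 higher (Slc7a5), as the changes in Slc3a2, Asns, Got1 and Got2 no longer passed. Without WT LPS replicate 2, 3 of the 9 passed in WT, and Asns (-0.57), Got1 (-0.31), Got2 (-0.15) and Slc3a2 did not. The call of Slc3a2 also ended without WT LPS replicate 3 or WT vehicle replicate 1 or 2, and that of Got2 without WT vehicle replicate 2 or 3. In AMPKa1-/-, Got1 did not pass without vehicle replicate 3 (-0.30). LPS + Dex differed from vehicle in 6 genes in WT (2 higher, 4 lower, with 54.2% of all genes passing, 17.2% higher and 37.0% lower) and in 5 in AMPKa1-/- (2 higher, 3 lower, with 57.4% of all genes passing, 16.7% higher and 40.8% lower). With the length gradient removed these counts were 4 higher and 3 lower in both genotypes, as Glul and Slc38a2 also passed as higher and Slc1a5 no longer passed in WT, beside 28.1% of all genes higher and 26.3% lower in WT and 28.6% and 27.3% in AMPKa1-/-. The split of all genes depended on the scaling as well. After median centring, 26.9% passed as higher and 28.4% as lower for LPS in WT and 30.3% each way in AMPKa1-/-, and 25.1% and 25.9% in WT and 26.3% and 26.7% in AMPKa1-/- for LPS + Dex against vehicle.

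DAMPs alone changed few genes, 2.01% of those tested in WT (1.22% higher, 0.793% lower) and 4.13% in AMPKa1-/- (1.89% higher, 2.24% lower). Of the 9, Asns and Slc7a5 fell in WT, and Asns, Slc7a5 and Slc1a5 fell in AMPKa1-/-. The fall of Slc7a5 did not pass without WT DAMPs replicate 3 or WT vehicle replicate 3 (-0.68 each), or in AMPKa1-/- without DAMPs replicate 1 (-0.55), and that of Slc1a5 did not pass in AMPKa1-/- without DAMPs replicate 3 or vehicle replicate 3 (-0.47 to -0.51). Slc1a5 read 18.3, 21.0 and 19.7 FPKM with DAMPs in WT, below every vehicle library, but its change of -0.47 did not pass (adjusted p = 0.0941). Slc38a2 with DAMPs also lay below every vehicle library, at 13.1, 12.9 and 11.4 FPKM in WT and 13.1, 13.8 and 14.2 FPKM in AMPKa1-/-, with changes of -0.23 and -0.39 that did not pass (adjusted p = 0.874 and 0.279). Glud1 with DAMPs read 253, 262 and 251 FPKM in WT, above every vehicle library, and overlapped with vehicle in AMPKa1-/-. Glul, Got1 and Got2 overlapped with vehicle in both genotypes, and neither they nor Glud1 passed in either. Fits restricted to the 6 libraries of the comparison made no call among the 9 in WT and 1 in AMPKa1-/-.

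Few of the 9 genes differed between the genotypes. Between AMPKa1-/- and WT, 0 of 9 passed with vehicle, LPS, LPS + Dex and DAMPs + Dex, where 0.432% (0.229% higher, 0.203% lower), 0.766%, 0.669% and 1.06% of all genes passed. With Dex, Slc7a5 was lower in AMPKa1-/- by 0.48 (adjusted p = 0.0239), where 26.5% of all genes passed in the comparison with the WT Dex libraries that stood apart, and with DAMPs, Glul was higher by 0.55 (815, 802 and 852 against 599, 680 and 434 FPKM, adjusted p = 0.0432), where 0.731% passed. Markers of other cells moved in the same Dex comparison. The fibroblast list summed to 11.9 to 24.7 FPKM in WT Dex and 2.99 to 4.50 FPKM in AMPKa1-/- Dex, with Col1a1 and Col1a2 called lower in AMPKa1-/- (by 1.64 and by 1.69), 2 of 3 tested. The neutrophil list summed to 0.726 to 1.46 and 6.08 to 12.4 FPKM, with Ngp, Ltf and Camp called higher (2.01, 1.13 and 1.05), 3 of 3 tested, and the part of these cells in the difference in Slc7a5 was not tested. With DAMPs the neutrophil list summed to 0.690 to 2.46 FPKM in WT and 5.59 to 15.5 FPKM in AMPKa1-/-, though Ngp, Ltf and Camp were not called. The fibroblast sums overlapped there, and the part of other cells in the difference in Glul was not tested. Neither the call of Slc7a5 nor that of Glul held when libraries were normalized by quantiles (-0.30 and 0.42). Without any 1 WT Dex library, or AMPKa1-/- Dex replicate 1 or 2, Slc7a5 gave -0.41 to -0.54 and did not pass, and leaving out any of many single libraries, DAMPs or not, ended the call of Glul (0.37 to 0.60). In the 5 tests of whether a treatment response differed between genotypes, limma called 0 of 11354 genes, with unadjusted p below 0.05 for 2441 genes for Dex, 514 for LPS, 311 for LPS + Dex against LPS, 66 for DAMPs and 234 for DAMPs + Dex against DAMPs. The interval of the difference in the Glul response was -0.50 to 0.26 for Dex and -0.70 to 0.11 for LPS.

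Other genes of the same pathways were read from lists chosen by function, given as counts past the test. Among 20 tested enzymes of glutamine and glutamate use, Dex raised 2 and lowered 4 in WT and raised 1 and lowered 5 in AMPKa1-/-, a share near that of all genes (30.9% and 27.9% in either direction). Gclm and Gclc, the subunits of the enzyme that commits glutamate to glutathione, fell with LPS (by 1.70 and 1.11 in WT) and with DAMPs (by 1.22 and 0.99 in WT, and by 0.93 each in AMPKa1-/-, where Gclm did not pass after median centring or with the length gradient removed). Gpt2, the mitochondrial alanine aminotransferase, rose in LPS + Dex against LPS by 1.90 in WT and 1.45 in AMPKa1-/-.

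Among 16 other amino acid carriers tested, LPS raised 5 and lowered 4 in WT, and raised 6 and lowered 4 in AMPKa1-/-, where 19.9% and 20.2% of all genes passed as higher and 35.8% and 44.1% as lower. With the length gradient removed the AMPKa1-/- counts were 10 higher and 3 lower, beside 32.8% and 30.7% of all genes. The largest changes were rises in Slc7a2, a carrier of arginine (6.53 and 6.75 on the log2 scale), Slc1a2, a glutamate carrier (5.00 and 5.28), and Slc7a11, the cystine and glutamate exchanger (3.35 and 4.19). With Dex added to LPS, Slc1a2 fell by 4.83 and fell by 5.22, and Slc7a2 fell by 1.59 and by 1.23, while Slc7a11 was not called (0.70 and 0.22). DAMPs lowered 1 of the 16 in each genotype, Slc7a1, a carrier of arginine and lysine, by 1.06 and by 0.98, where 0.793% and 2.24% of all genes passed as lower.

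The 7 tested genes of mitochondrial aspartate, glutamate and malate exchange, the shuttle in which Got1 and Got2 work, were higher in LPS + Dex than in vehicle in 7 of 7 cases in WT and 6 of 7 in AMPKa1-/-, with medians of 1.09 and 1.00 beside -0.23 and -0.28 over all genes, of which 17.2% and 16.7% passed as higher. Relative to LPS, Dex raised 4 of 7 in each genotype and lowered 1 in WT, where 16.6% and 19.3% of all genes passed as higher and 17.5% as lower in WT. Mdh1, the cytosolic malate dehydrogenase, rose by 1.39 and 1.62, and Slc25a13, an aspartate and glutamate carrier, by 1.05 and 1.24. Dex without LPS moved the list the other way in WT, with 1 higher and 5 lower, and in AMPKa1-/- 1 was higher and 2 lower. Of all genes, 14.9% and 16.0% passed as lower and 15.9% and 11.9% as higher. The WT count of this list includes the Dex libraries with the length gradient. With the gradient removed, 0 of the list were higher and 5 lower in WT, beside 15.2% and 18.5% of all genes.

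In the amino acid stress response list (15 tested, which leaves out Asns), Dex raised 4 and lowered 3 in WT and raised 6 and lowered 2 in AMPKa1-/-, where 15.9% and 11.9% of all genes passed as higher and 14.9% and 16.0% as lower. Ddit4, an inhibitor of mTORC1 signalling that is also glucocorticoid-induced, rose by 7.31 and 6.84, while Atf3 fell by 1.59 and 1.94. Atf4 itself was not called with Dex (-0.29 and -0.19) and was lower in LPS + Dex than in LPS by 0.69 and 0.39, the second of which did not pass after quantile normalization. Trib3, a common ATF4 target, fell with Dex in WT (by 0.71) and gave -0.19 without a call in AMPKa1-/-.

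Of 9 tested enzymes of serine, glycine and folate metabolism, Dex lowered 5 and raised 2 in WT and lowered 4 and raised 1 in AMPKa1-/-, where 14.9% and 16.0% of all genes passed as lower and 15.9% and 11.9% as higher. Mthfd2, a mitochondrial folate enzyme, fell by 2.35 and 2.10, and Psat1 fell by 1.76 in WT and fell by 2.001 in AMPKa1-/-. Psat1 also fell with DAMPs (by 1.30 and 1.57) and in LPS + Dex against LPS (by 1.76 and 1.75), as did Asns. Phgdh, the first enzyme of the same serine pathway, went the other way and rose in LPS + Dex against LPS by 2.29 and 2.46. Of the 20 cytosolic aminoacyl-tRNA synthetases, LPS raised 7 and lowered 3 in WT and raised 13 and lowered 2 in AMPKa1-/-, where 19.9% and 20.2% of all genes passed as higher and 35.8% and 44.1% as lower. The WT counts depended on the scaling, with 13 higher and 2 lower after median centring and 14 higher and 2 lower with the length gradient removed, against 14 and 1 and 15 and 1 in AMPKa1-/-. The shares of all genes passing as higher were then 26.9% and 30.5% in WT and 30.3% and 32.8% in AMPKa1-/-, and as lower 28.4% and 28.5% in WT and 30.3% and 30.7% in AMPKa1-/-. DAMPs lowered 2 and 1 of them, with Cars in both (by 0.46 and 0.47), where 0.793% and 2.24% of all genes passed as lower, but 0 passed in either genotype after median centring or with the gradient removed. Qars, which charges tRNA with glutamine, fell with LPS by 0.70 and 0.72 and rose in LPS + Dex against LPS by 0.52 and 0.46.

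**Figure D4:**
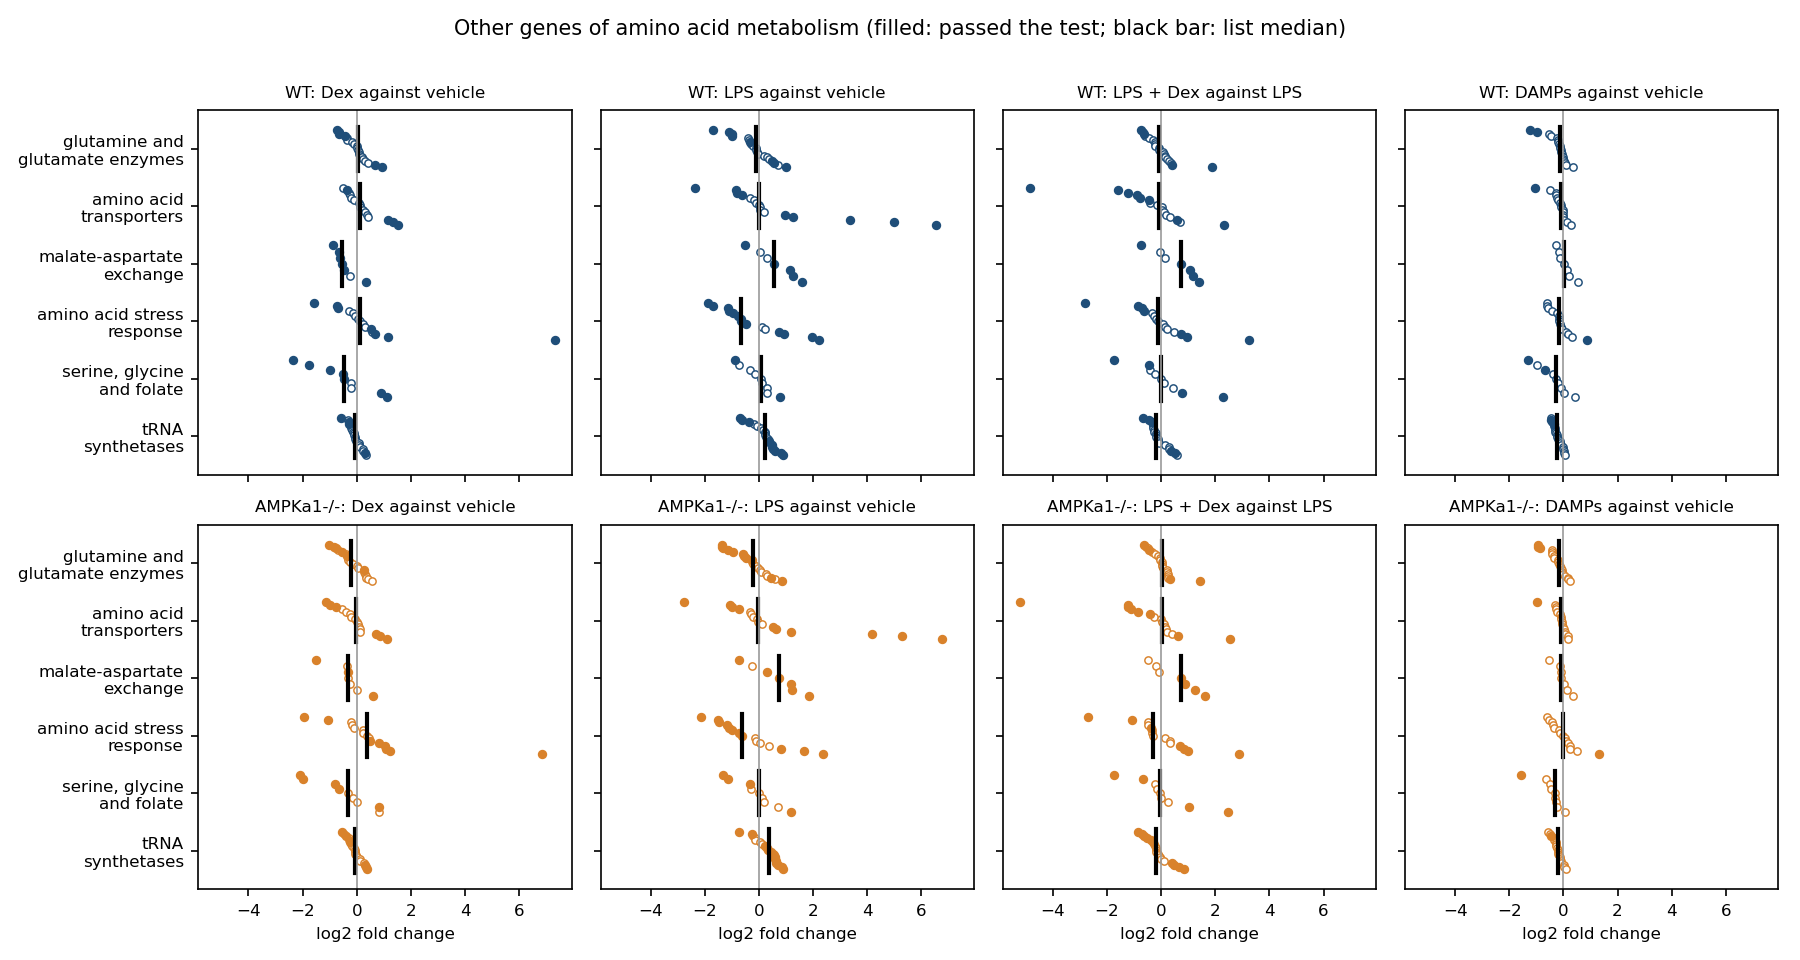
Log2 fold change on the log2(FPKM + 1) scale of each tested gene in 6 lists of amino acid metabolism, for 4 comparisons in WT (top) and AMPKa1-/- (bottom); filled points passed the test and black bars are list medians. With DAMPs the points stayed near 0 apart from a few lower genes such as Psat1 (-1.30 in WT), and with LPS the carriers Slc7a2 and Slc1a2 reached 6.53 and 5.00 in WT.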

How the data were processed

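RNA-seq was performed on 35 BMDM libraries. The authors deposited FPKM per Ensembl gene, and the submitters' processing notes name Bowtie2 2.2.3, TopHat2 2.0.12, HTSeq 0.6.1, DESeq2 and GRCm38/mm10 without roles. No source used here names the annotation release or the strand setting. Symbols and coordinates came from GENCODE on GRCm38 (46488 of 47069 identifiers matched). FPKM steps of 1 fragment gave library depths of 15837203 to 31955298 fragments (55.8 to 64.2% of low values whole within 0.001 fragments). Depth limits Slc7a5 most, and intervals come from the spread between libraries.

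Genes with mean FPKM of at least 1 were tested as log2(FPKM + 1) with limma 3.58.1 (R 4.3.3, trended empirical Bayes, 2-sided) in 1 model over 12 groups, with Benjamini-Hochberg adjustment over all 11354 genes at 0.05 and 27 contrasts. Members and lists were chosen with earlier results of these data known. Named genes were the 9 members in every library, Prkaa1, treatment and cell type markers, up to 3 called genes per list with the largest changes in a comparison described, and the 3 genes closest in pattern to each member. Trib3 and Atf4 were added after their values were seen. A further gene of the naming rule is not reported here. On simulated data for WT LPS + Dex against LPS, 80% of 100 genes changed by 1 on the log2 scale and 98% of 100 changed by 2 were recovered, with 7 false calls among 11191 genes. The changed genes were drawn from the more expressed ones, which leaves out genes as weak as Slc7a5. Noise was drawn independently for each library, with no shared deviations and no length gradient, so these rates may not hold for the real data. Alternatives were another pseudocount (0.1), no filter or a mean of at least 5, median centring, quantile normalization, fits on the groups compared, a replicate block and leaving out each library. Removal of the length gradient and leaving out both LPS + Dex libraries numbered 3 were chosen after seeing the data. Replicate numbers deviated together (every pair above r = 0.1) for Dex, LPS and both LPS + Dex comparisons in AMPKa1-/- (0.12 to 0.40) and in no other comparison with 3 pairs. Figures were drawn with matplotlib 3.10.9.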

Additional observations from a re-analysis of the deposited data

Results flagged for a closer look

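The tests of whether the Dex effect differed with and without LPS picked out 10 results (log2 scale, limma, adjusted p below 0.05). In WT the effect with LPS minus the effect without it was 1.95 for Glul, 0.78 for Slc1a5, -0.68 for Slc7a5, -0.73 for Slc38a2, 0.61 for Got1 and 1.40 for Got2. In AMPKa1-/- it was 2.18 for Glul, 0.56 for Glud1, 0.77 for Got1 and 1.14 for Got2. For Slc38a2 the WT value was -0.39 (adjusted p = 0.124) with the length gradient of the WT Dex libraries removed, and the gradient's part was not otherwise tested. Leaving out 1 library ended some of these calls. These were Got1 in WT without WT LPS replicate 2 (0.44), Slc7a5 without WT vehicle replicate 2, WT LPS replicate 3 or WT LPS + Dex replicate 3 (-0.53 to -0.60), Slc38a2 without WT vehicle replicate 1, WT Dex replicate 2, WT LPS replicate 2 or WT LPS + Dex replicate 3 (-0.54 to -0.67), and Glud1 in AMPKa1-/- without LPS + Dex or vehicle replicate 1 or 2, LPS replicate 2 or 3, or Dex replicate 2 (0.46 to 0.57).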

How the results depend on the processing

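The 9 genes gave 64 calls over all comparisons, and 45 kept their call under every setting run, leaving out single libraries included, which ended 16 calls. No call changed sign. Calls were lost in 1 case with a pseudocount of 0.1, 5 without a filter, 0 with a mean of at least 5 (where Slc7a5 and its 11 calls, 7 of them among the 45, were not tested), 9 after median centring, 4 after quantile normalization, 9 in fits on the groups compared, 7 after removal of the length gradient and 2 without both LPS + Dex libraries numbered 3. The replicate block lost 0. Counts of members called moved by over 1.5 times as follows. For WT LPS against vehicle, 7 became 4 after median centring and 4 after length removal. For WT DAMPs against vehicle, 2 became 1 with a mean of at least 5, as Slc7a5 was not tested, and 0 in fits on the groups compared. In AMPKa1-/- the latter fits gave 1 in place of 3, and DAMPs + Dex against DAMPs gave 2 in place of 1 after quantile normalization. The 2 differences between genotypes became 1 with a pseudocount of 0.1, without a filter and with a mean of at least 5 (again without Slc7a5), and 0 with quantile normalization and in fits on the groups compared. With the replicate block, the difference in Dex effect with and without DAMPs passed for 1 gene, Asns, in place of 0 in each genotype (adjusted p = 0.0217 in WT and 0.0494 in AMPKa1-/-, limma). Replicate numbers did not deviate together in any DAMPs comparison, so the block has no basis there. Leaving out each library in turn gave 3 to 6 calls for WT LPS against vehicle (3 without WT LPS replicate 2), 1 to 2 for WT DAMPs against vehicle (1 without WT DAMPs replicate 3 or WT vehicle replicate 3), 0 to 3 for the genotype differences (0 without WT Dex replicate 1, 3 without AMPKa1-/- Dex replicate 3) and 0 to 1 for the WT Dex effect with and without DAMPs (1 without WT DAMPs replicate 2). When 1 WT LPS library was left, its spread was taken from the remaining groups. The causes were not tested.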
